A study of Danio rerio with 25 samples.

Results

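In zebrafish larvae kept in dexamethasone (DEX), 10 genes that were clearly expressed on D3 were close to silent on D7. These 10 genes encode a cytochrome P450 (cyp2aa8), an apolipoprotein B (apobb.2), calpain 3 (CAPN3), a D-amino acid oxidase (DAO), a glutathione peroxidase (GPX7), a caveolin (cav4b), serum amyloid P component (apcs), a matrix metalloproteinase (mmp11b), a hyaluronidase (SPAM1) and a junctional adhesion molecule (f11r.2). They were chosen from measured values: a gene was taken when it had at least 5 CPM (the reads of a gene per 1000000 reads of its library) in each of the 3 D3 libraries and below 1 CPM in each of the 3 D7 libraries. Of the 32520 genes listed, 12822 met the D3 condition, 12055 met the D7 condition and 10 met both. Upper-case symbols are spelled as the gene name table gives them for these zebrafish genes, and all 10 had a symbol there.

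RNA-seq was made from whole zebrafish larvae in 2 experiments. The first followed larvae kept in DEX, a synthetic glucocorticoid that lowers bone formation, with 3 libraries on each day from D3 to D7. The study's methods name the larvae of its DEX model as the transgenic line Tg (Ola.Sp7: nlsGFP), with a green fluorescent reporter in bone. The labels read the day as time after DEX, whereas the series text and the study's methods give it as age in days after fertilization, with DEX present from D3 to D7. The second compared 5 libraries of cdkn1a crispants with 5 WT libraries. Crispants are mosaic first-generation larvae injected as embryos with Cas9 protein and a pool of guide RNAs against cdkn1a, the gene of the cell cycle inhibitor p21, so their cells carry different alleles. The methods give ages from D3 to D7 for larvae of this experiment as well. The age and fish line of each crispant and WT library, and whether any had received DEX, are not given in the sources used here. Larvae without DEX over the same days were not analysed here, so DEX exposure and age cannot be told apart in any comparison of days. In whole larvae, fewer cells of a type and less RNA per cell cannot be told apart either.

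The DEX libraries held 13685297 to 21812411 counted reads and the crispant and WT libraries 30330699 to 38467088. At the depth of the D7 libraries, 3 reads equal 0.182 to 0.219 CPM, the limit that a count of 0 allows, and the limit covers counting error only. The libraries of a day carried the letters a, b and c in the table. Library c of D3 was the lowest of its day for 9 of the 10 genes and the highest for the tenth, apcs. How often it was the lowest over all genes was not counted. Over a wider set of genes, same-letter libraries had correlated deviations from their day means. The mean r was 0.422 over 30 same-letter pairs of D3 to D7 and -0.173 over 60 different-letter pairs. In the crispant experiment the libraries fell into 2 sets that held 3 crispant with 3 WT libraries and 2 crispant with 2 WT libraries, along a first principal component with 52.2% of the variance. The sets were read from the counts, by the sign of that component, which gives 2 sides in any data, and are not groups of the study. The second set held WT replicates 4 and 5 and the 2 crispant columns whose names occur a second time. The targeted gene cdkn1a had 8.44, 9.98 and 8.18 CPM in the first-set crispants, against 17.8, 18 and 20.5 CPM in the first-set WT larvae, and 1.68 and 1.72 CPM in the second-set crispants, against 3.69 and 4.7 CPM in the second-set WT larvae. Crispants were below WT in every library of each set, and the sets themselves did not share a level.

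Over these days a zebrafish larva uses up its yolk, begins to feed with liver, pancreas and gut, and remodels embryonic tissue, and the 10 genes belong to several systems at work in it. Apolipoprotein B is the structural protein of lipoprotein particles, which the yolk syncytial layer, liver and intestine export to carry lipid. Cytochrome P450 enzymes oxidize steroids, fatty acids and foreign compounds, and D-amino acid oxidase is a peroxisomal enzyme. Matrix metalloproteinases and hyaluronidases cut the extracellular matrix, whereas caveolins and junctional adhesion molecules organize the cell membrane and cell contacts.

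Among the metabolic genes, cyp2aa8, apobb.2 and DAO had their steepest step at the start of the course by the mean over libraries. The gene cyp2aa8 (ENSDARG00000104540), a member of the fish cytochrome P450 family 2 subfamily AA, had 77.9, 78.8 and 10.8 CPM in libraries a, b and c on D3, 7.32, 7.41 and 4.63 CPM on D4, 1.23, 0.425 and 0.417 CPM on D5, 0.474, 0.26 and 0 CPM on D6 and 0.0722, 0.511 and 0.0605 CPM on D7. Library c of D3 lay at 13.8% of the mean of libraries a and b of that day, nearer to the D4 libraries than to its own day, although every D4 library was still below it. The D4 mean was 11.5% and the D5 mean 1.24% of the D3 mean, and the D7 libraries held 1, 7 and 1 reads of the gene.

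The gene apobb.2 (ENSDARG00000075016), one of the apolipoprotein B genes, had 31.9, 52.5 and 5.22 CPM on D3, 4.99, 6.12 and 3.53 CPM on D4, 3.49, 3.89 and 0.893 CPM on D5, 1.15, 1.11 and 0.245 CPM on D6 and 0.289, 0.292 and 0.847 CPM on D7. Library c of D3 was again low, at 12.4% of the mean of a and b, and it overlapped the D4 range. DAO (ENSDARG00000035602) had 18.9, 24.5 and 12.9 CPM on D3, 1.88, 2.79 and 7.15 CPM on D4, 0.273, 0.486 and 2.38 CPM on D5, 0.407, 0.0651 and 0.184 CPM on D6 and 0, 0.0731 and 0.121 CPM on D7. For DAO the c library was the lowest on D3 and the highest on D4 and D5, and all libraries of D3 were above all of D4. The steepest step of the mean log2(CPM + 1) was D3 to D4 for these 3 genes, at -2.52 for cyp2aa8, -2.1 for DAO and -1.94 for apobb.2. In library c alone, the fall from D4 to D5 was larger on this scale than that from D3 to D4 for all 3 genes. The step from D3 to D4 uses the D3 libraries that chose the genes and is a description without a test.

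CAPN3 and GPX7 followed an intermediate course. CAPN3 (ENSDARG00000043035), known in mammals as a calcium-dependent protease of skeletal muscle, had 25.6, 22.6 and 16.4 CPM on D3, 7.06, 5.3 and 10.6 CPM on D4, 0.615, 2.25 and 0.834 CPM on D5, 0.136, 0.13 and 0 CPM on D6 and 0.0722, 0.0731 and 0.303 CPM on D7. The D3, D4 and D5 ranges of CAPN3 did not touch, and its D6 libraries held 2, 2 and 0 reads. GPX7 (ENSDARG00000091511), a peroxidase of the endoplasmic reticulum, had 21.7, 24.2 and 8.21 CPM on D3, 8.09, 9.92 and 5.64 CPM on D4, 3.9, 2.91 and 1.13 CPM on D5, 1.02, 1.04 and 0.368 CPM on D6 and 0.722, 0.804 and 0.908 CPM on D7. Its D6 and D7 libraries overlapped, with day means of 0.808 ± 0.382 and 0.811 ± 0.0932 CPM (SD, n = 3 each).

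The genes of matrix and cell surface kept most of their D3 level on D4. The gene mmp11b (ENSDARG00000016718), related to mammalian stromelysin-3, had 16.5, 15.1 and 7.34 CPM on D3, 11.7, 8.22 and 7.38 CPM on D4, 2.87, 3.52 and 0.596 CPM on D5, 2.57, 1.76 and 0.368 CPM on D6 and 0.866, 0.365 and 0.242 CPM on D7. Its c library was the lowest on every day. SPAM1 (ENSDARG00000004199), a hyaluronidase known in mammals from the sperm surface, had 10.3, 11.8 and 6.58 CPM on D3, 10.2, 10.3 and 6.1 CPM on D4, 3.55, 1.88 and 0.774 CPM on D5, 1.36, 0.976 and 0.0613 CPM on D6 and 0.144, 0.0731 and 0.242 CPM on D7. The D3 and D4 libraries of SPAM1 overlapped, and every D5 library was below them. The adhesion gene f11r.2 (ENSDARG00000068114) had 10.6, 10.6 and 6.58 CPM on D3, 7.96, 8.77 and 3.44 CPM on D4, 2.67, 1.34 and 0.417 CPM on D5, 0.203, 0.456 and 0.429 CPM on D6 and 0.144, 0.292 and 0 CPM on D7. Here too every D5 library was below every D4 library, and the steepest step of all 3 genes, as for CAPN3 and GPX7, was D4 to D5.

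The genes cav4b and apcs had their steepest step later than the other genes, from D5 to D6. The caveolin gene cav4b (ENSDARG00000070923) had 17.4, 20.2 and 12.3 CPM on D3, 14.4, 16.2 and 18.5 CPM on D4, 8.89, 8.44 and 6.67 CPM on D5, 2.78, 2.08 and 0.552 CPM on D6 and 0.938, 0.658 and 0.363 CPM on D7. Its D4 mean was 98.3% of the D3 mean, and the steepest step, -1.77 on the log2(CPM + 1) scale, was D5 to D6. The pentraxin gene apcs (ENSDARG00000045089) had 10.1, 12.9 and 17.5 CPM on D3, 26.2, 49.3 and 31 CPM on D4, 28, 8.92 and 14.4 CPM on D5, 4.74, 2.21 and 5.89 CPM on D6 and 0.0722, 0.95 and 0.787 CPM on D7. It was the single gene of the 10 with its highest day mean after D3: all D4 libraries were above all D3 libraries, the D4 mean was 262% of the D3 mean, and the D7 mean was 4.46% of it.

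**Figure D1:**
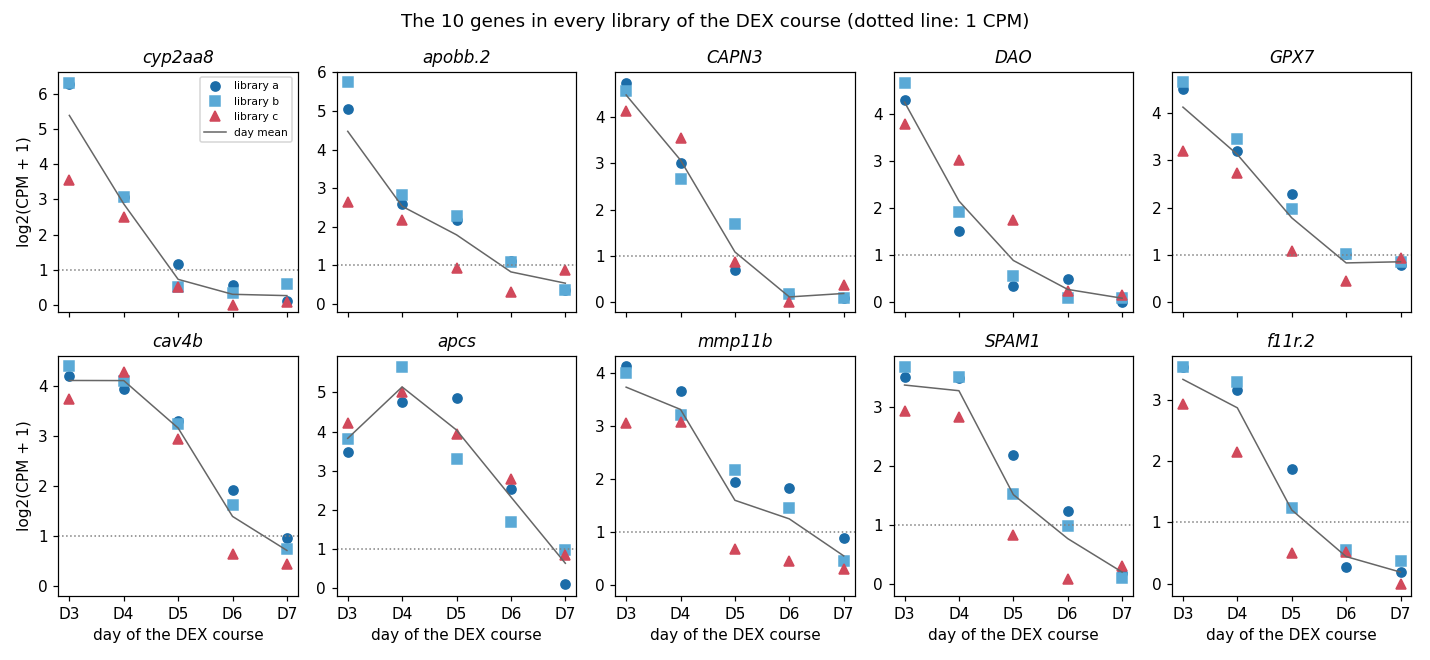
Each panel shows 1 of the 10 genes, with log2(CPM + 1) on the vertical axis and the day of the DEX course on the horizontal axis. Points are single libraries (a, circles; b, squares; c, triangles), the line joins the day means of the plotted values, and the dotted line marks 1 CPM. The c library of D3 lies far below a and b for cyp2aa8 and apobb.2, and apcs peaks on D4.

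The day of loss, taken as the first day from which all 3 libraries stayed below 1 CPM, was D6 for 4 genes (cyp2aa8, CAPN3, DAO and f11r.2) and D7, the latest day the rule allows, for the other 6. No gene was lost on D4 or D5. Among all 12822 genes with at least 5 CPM in every D3 library, 6 (0.0468%) were below 1 CPM in every D6 library, and these 4 were among them. That count uses the D3 libraries of the rule and is a description. With a limit of 2 CPM in place of 1, or with the day mean in place of every library, 7 of the 10 genes were lost by D6: cyp2aa8 then left on D5, and apobb.2, GPX7 and SPAM1 on D6. The genes cav4b, apcs and mmp11b had D7 as their day of loss under both of these settings. Over the 10 genes, the median of the day mean relative to the D3 mean was 56.9% (D4), 15.3% (D5), 4.2% (D6) and 1.6% (D7). Over all genes with at least 5 CPM in every D3 library it was 94.1%, 89.8%, 89% and 84% on the same days. This contrast is a description too, since the D3 values chose the 10 genes and the rule limits their D7 values. The steepest step fell on D3 to D4 for 3 genes, on D4 to D5 for 5 and on D5 to D6 for 2, and for none on D6 to D7.

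At the edge of the rule, apobb.2 had the smallest D3 minimum (5.22 CPM), followed by SPAM1 and f11r.2 (6.58 CPM each), and apcs (0.95 CPM), cav4b (0.938 CPM) and GPX7 (0.908 CPM) had the largest D7 maxima. Just outside, PIF1 and NTMT2 had D3 minima of 4.84 and 4.74 CPM, and a gene without a symbol (ENSDARG00000117637) rounded to 5 but fell short of it. The genes exo1, si:dkeyp-117h8.4 and si:dkey-31n5.4 missed the D7 condition with maxima of 1.03, 1.09 and 1.09 CPM. The c libraries decided much of the choice. Without them, the rule took 64 genes, the 10 necessarily among them, whereas leaving out the a libraries gave 11 and leaving out the b libraries 13.

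The libraries of D4, D5 and D6 took no part in the choice, and these days were compared by the quasi-likelihood test of edgeR, with p-values adjusted by the Benjamini-Hochberg method over 21209 genes, a set that held all 10. On D6, 8 of the 10 genes were lower than on D4 and none was higher. Genes chosen for high D3 and low D7 values are likely to fall in between. The shares over all genes, here and for the other pairs of these days, are therefore not a like background for the 10. Over all genes tested, 2.61% were called lower and 1.46% higher, and the median log2 fold change was -3.32 over the 10 genes and 0.04 over all genes tested. The largest difference was that of CAPN3, with a log2 fold change of -6.35 ± 0.78 (SE) and an adjusted p of 0.00944 by edgeR. Each SE given with an edgeR value was derived from the log2 fold change and the F statistic of the test, not fitted. The log2 fold change was -4.64 ± 0.74 for cyp2aa8 (edgeR adjusted p = 0.0134) and -4.09 ± 0.63 for f11r.2 (edgeR adjusted p = 0.0121). The log2 fold changes of GPX7, cav4b and apcs were -3.22 ± 0.48, -3.17 ± 0.46 and -2.97 ± 0.52, with edgeR adjusted p of 0.0118, 0.0115 and 0.018. SPAM1 (-3.41 ± 0.72, edgeR adjusted p = 0.033) and apobb.2 (-2.49 ± 0.59, edgeR adjusted p = 0.0464) were nearer to the threshold. DAO and mmp11b did not pass it, at -4.17 ± 1.04 and -2.48 ± 0.65, with edgeR adjusted p of 0.055 and 0.0625. With the library letter as a block, an alternative, edgeR called all 10 genes lower, beside 6.74% of the genes tested. DESeq2 called all 10 genes lower, beside 4.48% of the 28999 genes with reads on these days, a wider set than that of edgeR. Every D6 library was below every D4 library for all 10 genes, which held for 11.2% of the genes with reads on these days.

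**Figure D2:**
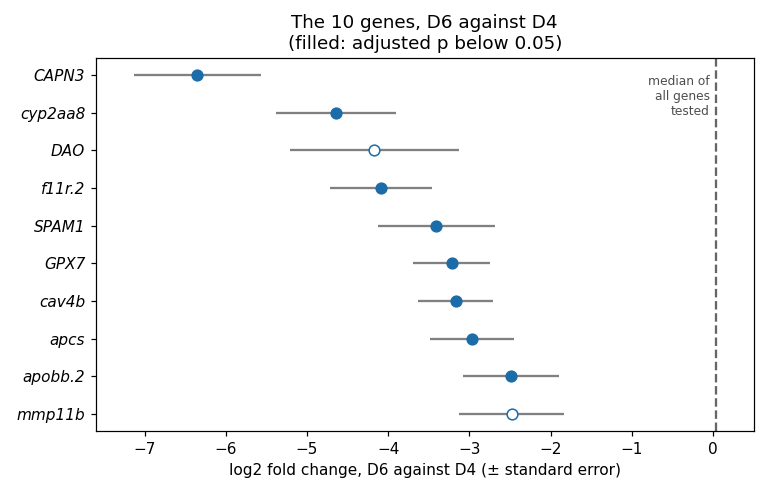
The log2 fold change of D6 against D4 (horizontal axis) is shown for each of the 10 genes (rows). The bar is a standard error derived from the F statistic. Filled points passed an adjusted p of 0.05, open points (DAO and mmp11b) did not, and the dashed line is the median of all genes tested, 0.04.

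The number of calls hung on single libraries. Without library b of D6 none of the 10 genes passed, without library a of D4 2 did and without library b of D4 5 did, and over all genes 8, 41 and 185 were then called lower, against 554 with every library. Under each setting that tested the gene, the log2 fold change stayed negative, and over the 10 genes and all settings it lay between -6.77 and -2.02. The labels do not say whether the libraries of a day came from separate clutches, so the p-values measure the spread between these libraries, which may be technical.

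The pairs of neighbouring days that the rule did not use, D5 with D4 and D6 with D5, gave no call by edgeR. On D5 compared with D4, 0 of the 10 genes and 0% of the 21209 genes were lower at an adjusted p of 0.05 by edgeR's quasi-likelihood test. At an unadjusted p below 0.05 by that test, 7 of the 10 and 761 of all genes were lower, and 0 and 593 higher. DESeq2 called 3 of the 10 genes lower on D5, beside 0.283% of the 28999 genes with reads: cyp2aa8 (log2 fold change -3.2), CAPN3 (-2.65) and f11r.2 (-2.17). On D6 compared with D5, edgeR also called 0 of the 10 and 0% of all genes lower. Here 6 of the 10 and 610 of all genes were lower at an unadjusted p below 0.05, and 0 and 555 higher. DESeq2 called 3 of the 10 lower, beside 0.183% of the genes with reads: CAPN3 (-3.81), cav4b (-2.13) and apcs (-1.92). Every D5 library was below every D4 library for 7 of the 10 genes, beside 6.65% of genes with reads, and every D6 library was below every D5 library for 4, beside 4.75%. The c libraries were the lowest of their day for 6 of the 10 genes on D4 and for 7 on D5 and D6, and the highest for 3, 1 and 1. The shares of all genes with the c library lowest or highest were not counted. With the a and b libraries alone, an alternative chosen after the data were seen, 10 genes were called lower on D6 than on D4, 5 lower on D5 than on D4 and 4 lower on D6 than on D5, beside 7.48%, 0.527% and 0.65% of the genes tested.

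Each of the 10 genes has relatives in the table that share its name stem or family. The relatives were picked by name after the 10 genes were known, and their day means carry no test. How the counting handled reads that fit several near-identical copies is not given in the sources used here, and it could affect their values. Of 9 cyp2aa genes, cyp2aa9, cyp2aa3 and cyp2aa4 ran with cyp2aa8: their D7 means were 0.255, 0.647 and 1.47 CPM, against D3 means of 19.9, 18.7 and 18 CPM. All 3 had lower values in library c of D3 than in a and b, as cyp2aa8 had, and cyp2aa9 and cyp2aa3 missed the rule through that library alone, with 4.51 and 3.75 CPM. In the opposite direction, cyp2aa12 had day means of 4.41, 9.85, 17.2, 17.6 and 24 CPM over D3 to D7, and its D3 values were 1.19, 1.67 and 10.4 CPM. Here library c of D3 was high and again next to the D4 libraries, at 10.1, 9.51 and 9.95 CPM. The gene cyp2aa1 kept a level, with day means from 12.8 to 17.5 CPM. Between these courses, cyp2aa2 had means of 6.26 CPM on D3 and 2.36 CPM on D7, and cyp2aa11 had 1.23 and 0.62 CPM.

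The pentraxins parted after D4. All of apcs, crp3 and crp5, genes of secreted pattern-recognition proteins, had higher day means on D4 than on D3: 35.5 against 13.5 CPM for apcs, 35.2 against 9.32 CPM for crp3 and 31.5 against 6.49 CPM for crp5. For crp3, libraries a and b had 2.37 and 3.84 CPM on D3 and 37.6 and 43.9 CPM on D4. Library c of crp3 had 21.7 CPM on D3 and 24.2 CPM on D4. For crp5 it had 15.8 and 18.6 CPM, so the difference in means of both genes came mostly from libraries a and b. On D7 the mean of apcs was 0.603 CPM, whereas crp3 and crp5 stood at 36.2 and 37.6 CPM. The second CAPN3 gene (ENSDARG00000041864) had a mean of 111 CPM on D7 and 100 CPM on D3, and f11r.1 had 68.7 CPM on D7 and 52.1 CPM on D3. Of the 2 other DAO genes, ENSDARG00000035603 had 11.8 CPM on D7 and 15.7 CPM on D3, and ENSDARG00000035601 was below 1 CPM on average on every day. One copy of each of these pairs was therefore near silent on D7 while another was not.

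**Figure D3:**
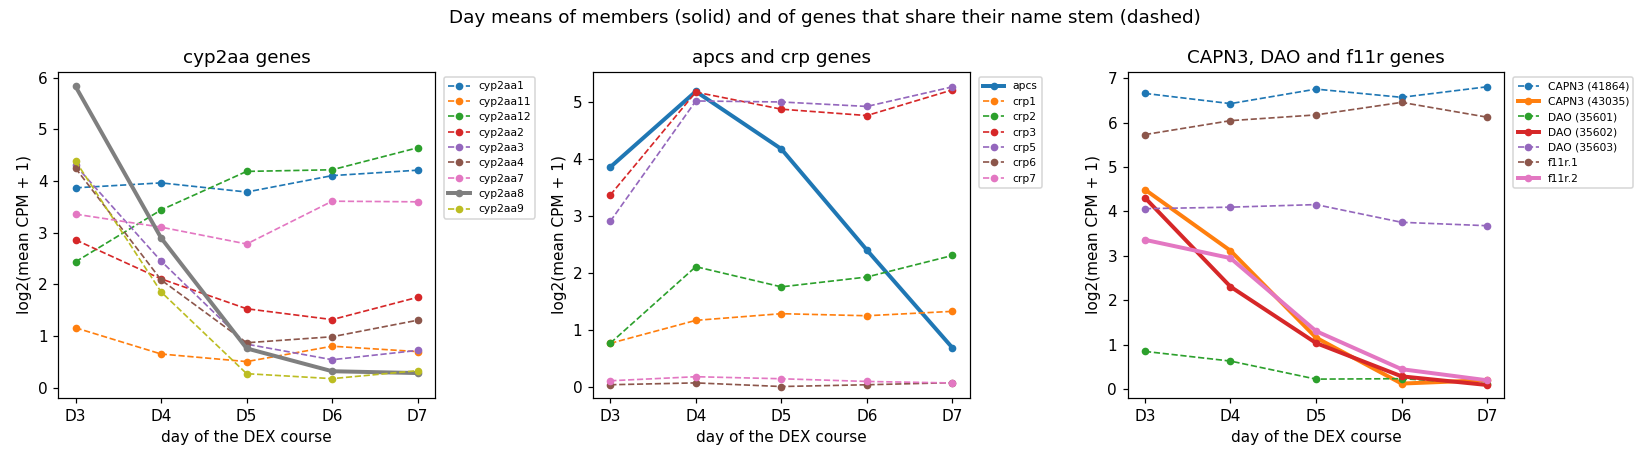
Day means are drawn as log2(mean CPM + 1) against the day for the chosen genes (thick solid lines) and for genes whose names share their stem (thin dashed lines), in 3 panels. Numbers after CAPN3 and DAO are the last digits of the gene identifier. The genes cyp2aa8, cyp2aa9 and cyp2aa3 fall to near 0 on D7, cyp2aa4 and cyp2aa2 end somewhat higher, and cyp2aa11 is low on every day. The line of apcs leaves those of crp3 and crp5 after D4.

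In the other families the relatives varied. APOB, a further apolipoprotein B gene, had day means of 345, 233, 118, 38.1 and 16.9 CPM, with library c the lowest on every day, and apobb.1 had 944 CPM on D7 and 1820 CPM on D3. MMP11 had 2.06 CPM on D7 and 9.99 CPM on D3, cav4a had 1.08 CPM on D7 and 5.5 CPM on D3, and cav3, the muscle caveolin of mammals, had 30.4 CPM on D7 and 74.7 CPM on D3. CAV1 and CAV2, caveolins found in many cell types, had D7 means of 86.9% and 111% of their D3 means. Among the 7 hyaluronidase genes the D7 mean ranged from 1.6% of the D3 mean for SPAM1 to 134% for HYAL3, and GPX8, a close relative of GPX7, kept 42.4%.

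Other tissues and processes of the larva were read from gene lists, of which the yolk and liver list alone held one of the 10, apobb.2. Their counts stand beside 2.61% of all genes called lower and 1.46% called higher on D6 than on D4 by edgeR's quasi-likelihood test, and beside a median log2 fold change of 0.04. Of 27 yolk and liver genes tested, 4 were lower and 0 higher, with a median of -0.66: vtg7, a yolk vitellogenin (-2.7), apobb.2, tfa, which encodes transferrin (-2.39), and apoa1a, which encodes apolipoprotein A-I (-1.93). Among lists that hold matrix genes, 3 of 15 bone and cartilage genes (median -1.22), 3 of 16 notochord genes (median -1.08) and 4 of 21 fin fold and epidermal matrix genes (median -0.22) were lower, with 0, 0 and 1 higher. They included hapln1a, a hyaluronan and proteoglycan link protein (-2.71), MATN1, a cartilage matrilin (-2.66), col1a1a, a chain of type I collagen (-2.57), and col8a1a, a chain of type VIII collagen (-2.46). Of 35 cell cycle genes 21 were lower and 0 higher, with a median of -1.51, and of 23 pancreatic digestive enzyme genes 8 were higher and 0 lower, with a median of 1.56. Of 21 neural crest and pigment genes 4 were lower, of 9 hatching gland genes 2, of 5 embryonic globins 1 and of 26 neural and retinal progenitor genes 1, and none of these was higher. Of 15 glucocorticoid response genes 1 was lower and 3 higher, and 1 of 10 osteoclast and macrophage genes and 1 of 24 photoreceptor genes were higher. No gene was called of 24 somite and early muscle, 16 lens crystallin, 14 ionocyte and ciliated cell and 6 oocyte and maternal genes. The part of these tissues and processes in the values of the 10 genes was not tested.

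The crispant and WT libraries were counted in a table of their own, so their levels are set beside the DEX days only as values normalized apart. All 10 genes had a WT mean below their D3 mean and 9, all but apcs, had a WT mean above their D7 mean, which the choice of genes with high D3 and low D7 values largely fixes. The WT level depended on the set: first-set and second-set WT means were 2.87 and 0.485 CPM for cyp2aa8, 5.2 and 2.43 CPM for CAPN3, and 4.18 and 1.39 CPM for cav4b. The day with the nearest mean, on the scale of log2(CPM + 0.1), was D4 for 2 genes, D5 for 3, D6 for 4 and D7 for 1 in the first set, and D5 for 2, D6 for 6 and D7 for 2 in the second set. The sets gave the same nearest day for 5 of the 10 genes, namely apobb.2, DAO, apcs, SPAM1 and f11r.2.

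None of the genes passed the test between crispants and WT over all 10 libraries. That test did not take in the 2 sets, so differences between them counted in its spread. It took 9 of the 10, since DAO had too few reads for the filter on low counts, and at an adjusted p of 0.05 and an absolute log2 fold change above 0.3 edgeR's quasi-likelihood test called 0 of them, beside 0.0129% of 23222 genes called higher and 0.155% called lower. At an unadjusted p below 0.05, 3 of them were higher in crispants (cyp2aa8, apcs and apobb.2) and 0 lower, beside 1090 higher and 1648 lower of all genes tested. DESeq2 called 2 higher, apcs (log2 fold change 2.47, DESeq2 adjusted p = 0.0201) and DAO (2.39, DESeq2 adjusted p = 0.0405), beside 0.584% of the 29628 genes with reads.

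The gene cyp2aa8 had 13.5, 11.2 and 14.3 CPM in the first-set crispants, against 2.85, 2.03 and 3.72 CPM in the first-set WT larvae. In the second set it had 1.11 and 3.91 CPM in crispants, against 0.519 and 0.45 CPM in WT larvae. Crispants were above WT without overlap within each set, but a second-set crispant library, at 1.11 CPM, lay below all first-set WT libraries. The log2 fold change was 2.18 ± 0.72 (SE) over all libraries (edgeR adjusted p = 0.253) and 2.22 ± 0.28 with the set as a block (edgeR adjusted p = 0.000656), the single call among the 10 in that fit, beside 1.51% of genes called higher. Within the sets it was 2.19 ± 0.2 in the first (edgeR adjusted p = 2.8e-08) and 2.36 ± 0.57 in the second (edgeR adjusted p = 0.0516). The difference between the sets was -0.19 ± 0.55 (edgeR adjusted p = 0.863). The sets were drawn from the counts of these same libraries. P-values of fits that use the sets are therefore a description, here and for the genes below.

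The gene apcs had 2.8, 1.88 and 2.24 CPM in the first-set crispants, against 0.158, 0.208 and 0.306 CPM in the first-set WT larvae. In the second set it had 0.163 and 0.313 CPM in crispants, against 0.519 and 0.169 CPM in WT larvae. Crispants and WT were apart in the first set and overlapped in the second, with log2 fold changes of 3.37 ± 0.46 (edgeR adjusted p = 9.22e-06) and -0.53 ± 0.84 (edgeR adjusted p = 0.845). Over all libraries it was 2.44 ± 0.72 (edgeR adjusted p = 0.215), and the effect differed between the sets by 3.88 ± 0.87 (edgeR adjusted p = 0.00377), beside 6.49% of genes with a larger effect in the first set. DAO had 0.573, 0.776 and 1.25 CPM in the first-set crispants, against 0.238, 0.104 and 0.111 CPM in the first-set WT larvae, and 0.0271 and 1.88 CPM in the second-set crispants, against 0.273 and 0.141 CPM in the second-set WT larvae. Its second-set crispant libraries lay on both sides of WT. With the first set alone, edgeR called cyp2aa8, apcs and DAO higher in crispants, beside 9.56% of the genes tested, and none of the 10 lower, beside 12.5%. With the second set alone it called 0 of the 10 higher, beside 1.13%, while 3 of them were higher at an unadjusted p below 0.05, beside 1681 of 23428 genes.

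The other 7 genes were not called in any fit of crispants against WT. The gene apobb.2 was the single one of the 10 whose crispants (1.27, 1.33, 1.09, 1.57 and 1.15 CPM) were all above WT (0.977, 1.04, 0.195, 0.573 and 0.704 CPM), a pattern that 1.1% of genes with reads showed. Its log2 fold change was 0.88 ± 0.37 (edgeR unadjusted p = 0.0324, adjusted p = 0.376), which did not pass after adjustment over all genes tested. Within each set, crispants were above WT without overlap for 2 of the 10 genes, cyp2aa8 and apobb.2, beside 3.3% of all genes. For cav4b the crispant means were 3.63 and 3.64 CPM in the first and second set, against WT means of 4.18 and 1.39 CPM. The effect of the first set minus that of the second was -1.58 ± 0.4 (edgeR adjusted p = 0.00901), beside 8.5% of genes with a smaller effect in the first set. CAPN3 averaged 3.31 ± 0.8 CPM in crispants and 4.09 ± 1.89 CPM in WT larvae (SD, n = 5 each), and GPX7 1.44 ± 0.334 and 1.51 ± 0.289 CPM. The crispant means of mmp11b, SPAM1 and f11r.2 were 1.74 ± 0.711, 1.61 ± 0.248 and 0.923 ± 0.284 CPM, against WT means of 1.59 ± 0.705, 1.16 ± 0.273 and 0.599 ± 0.394 CPM. Each of these 5 genes overlapped between the groups over all libraries. Within the first set, CAPN3 had 3.63, 3.58 and 2.93 CPM in crispants, all below WT at 7.03, 4.34 and 4.22 CPM. Its log2 fold change there was -0.59 ± 0.23 (edgeR adjusted p = 0.0562), and 0.4 ± 0.34 in the second set. Within the second set, GPX7, SPAM1, f11r.2 and cav4b were higher in each crispant library than in each WT library, as were cyp2aa8 and apobb.2. For cav4b the log2 fold change was 1.38 ± 0.34 in the second set (edgeR adjusted p = 0.0532) and -0.19 ± 0.22 in the first (edgeR adjusted p = 0.579). The share of all genes with these patterns in a single set was not counted, so they are a description only.

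**Figure D4:**
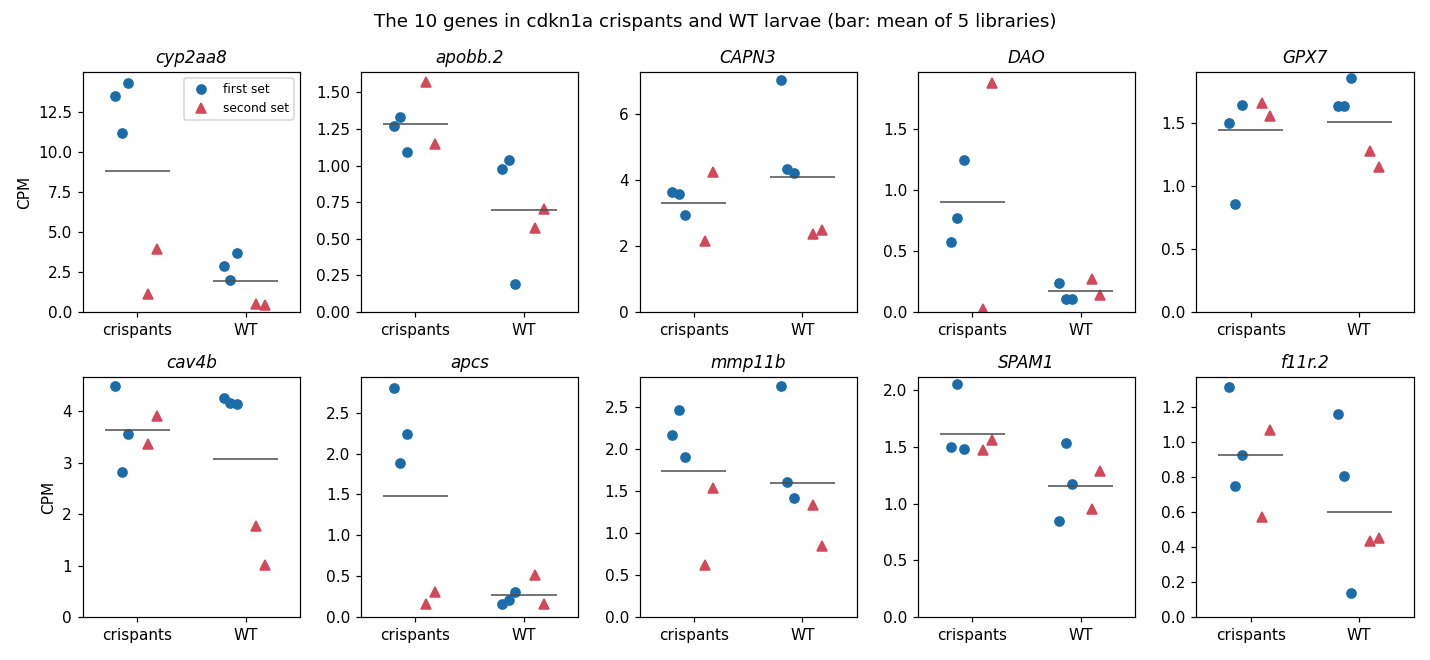
Each panel shows 1 of the 10 genes in crispants (left) and WT larvae (right), with CPM on the vertical axis. Points are libraries of the first set (circles) and the second set (triangles), and the bar is the mean of 5 libraries. The genes cyp2aa8 and apcs show raised first-set crispants, and apobb.2 is the single gene without overlap between crispants and WT.

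The 10 genes moved alike over the 15 DEX libraries, as the choice of high D3 and low D7 values makes them: Pearson's r of log2(CPM + 1) ranged from 0.51 to 0.97 over the 45 pairs, with a median of 0.89. After the day means were taken out, r ranged from -0.69 to 0.94 with a median of 0.33, and the highest was that of apobb.2 and GPX7. All pairs share the same 15 libraries and their depths, and these values are a description across genes.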

How the data were processed

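RNA-seq libraries of whole larvae (15 DEX, 5 cdkn1a crispant, 5 WT) were analysed. According to the study's methods the authors trimmed reads with Trim Galore, aligned them to GRCz11 with STAR 2.7.8 and counted them per gene with HTSeq 0.13.5, and deposited whole-number counts in 2 tables, used here without other normalization. The annotation release and strand setting are not given in the sources used here. All per-sample columns were used (0 left out). The column letters were taken to stand for replicates 1 (a), 2 (b) and 3 (c). Crispant column names repeat, so these columns were assigned to the group only. The characteristics of the crispants name sgCdkn1a to sgCdkn5a, one each, while every title reads sgCdkn1a, and all 5 were taken as 1 group. Symbols came from a name table (29201 of 32520 genes).

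CPM were taken from library totals. Tests used edgeR 4.0.16 in R 4.3.3 (TMM scaling, filterByExpr, quasi-likelihood F-test, Benjamini-Hochberg over all genes tested), with D4, D5 and D6 in 1 fit of 9 libraries and crispants with WT in another. The SE beside an edgeR log2 fold change is its absolute value divided by the square root of F. DESeq2 1.42.0, other scalings, filters, a replicate block and left-out libraries were alternatives, and the code was checked on simulated counts. The members and lists were chosen with earlier results of these data known. Genes named were all members, the genes nearest to the thresholds of the rule, and others picked after their values were seen (relatives by name, list genes called). Same-letter libraries of D4 to D6 had correlated deviations from the day means (9 pairs, mean r 0.406, lowest 0.071). The 18 different-letter pairs had a mean r of -0.168. The letters were not treated as pairing, since r was not above 0.1 in every same-letter pair. The main tests of these days therefore leave out this shared variation by letter, and the replicate block is an alternative that takes it in. Libraries of the same group differed by more than counting noise in each of the 35 pairs. Sequences were not analysed here.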

Additional observations from a re-analysis of the deposited data

Results flagged for a closer look

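For 2 genes, 1 crispant library stood apart from the other 4. GPX7 had 0.859 CPM in the lowest crispant library, with the next at 1.5 CPM, and SPAM1 had 2.05 CPM in the highest, with the next at 1.56 CPM, and both were the same first-set library. These were 2 of 20 groups looked at (the 10 genes in crispants and in WT larvae), and chance alone marks about 1 in 20 such groups.

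The crispant effect differed between the first and the second set of libraries for apcs, by 3.88 on the log2 scale (edgeR adjusted p = 0.00377), and for cav4b, by -1.58 (edgeR adjusted p = 0.00901), as tested by an interaction term. The sets were read from the counts, and what sets them apart was not tested.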

How the results depend on the processing

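The rule took 25 genes at 3 CPM and 5 at 10 CPM on D3, 4 at 0.5 CPM and 68 at 2 CPM on D7. Without 1 letter of libraries it took 11 to 64. The 10 genes are in every looser choice by construction. With TMM library sizes it took 8 of the 10, without apobb.2 and GPX7. The genes lost by D6 numbered 7 below 2 CPM and 7 by the day mean, against 4, and the other settings gave 3 to 5.

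For D6 against D4, a filter of 10 counts in every library left 1 gene tested and called (apcs), and leaving out single libraries gave 0 to 7 called genes of the 10 and 8 to 603 over all genes. DESeq2 called 1299 genes lower, the replicate block 1429, a model of all 15 libraries 885, and the a and b libraries alone 1589. For D5 against D4 (0 of the 10 genes and 0 of all genes in the main test) the called members and genes were 3 and 82 with DESeq2, 1 and 12 with the replicate block, and 5 and 112 with a and b alone. For D6 against D5 they were 3 and 53 with DESeq2, 0 and 2 with the replicate block, and 4 and 138 with a and b alone. Over all genes, 1 was called without the low-count filter, 1 with the filter of 10 counts and 0 to 1 without single libraries. Same-letter libraries had correlated deviations but were not treated as pairs in the main tests. The block called 10 of the 10 genes lower for D6 against D4, with edgeR adjusted p of 0.00781 for DAO and 0.00842 for mmp11b.

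For crispants against WT, DESeq2 called 2 of the 10 genes (340 of all genes lower, 173 higher), the set as a block 1 (854 lower, 350 higher), the first set alone 3 (2919 lower, 2227 higher), and the second set alone 0 (450 lower, 264 higher). Leaving out single libraries gave 0 of the 10, 9 to 144 genes lower and 0 to 13 higher. No paired analysis was possible because the replicate numbers of the crispant columns repeat and cannot be matched to the numbered samples. The sign turned for apcs, called higher by DESeq2 and in the first set, with the second set alone (-0.53, main 2.44). Among genes called in no crispant fit it turned with the second set alone for CAPN3 (0.4, main -0.31), GPX7 (0.4, main -0.08) and mmp11b (-0.01, main 0.13), with the first set alone for cav4b (-0.19, main 0.23), and without single libraries for GPX7 (-0.17 to 0.06, 0.03 without WT replicate 3) and mmp11b (-0.04 to 0.42). The cause was not tested. At 3 reads the floor of D7 values is 0.182 to 0.219 CPM, and 0 reads there does not show absence.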

Other observations

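Of the 6 genes with at least 5 CPM in every D3 library and below 1 CPM in every D6 library, 2 were not among the 10, since 1 D7 library was above the limit. The gene golim4b had D7 values of 0.794, 0.731 and 1.09 CPM. The hatching enzyme gene he1.1, a marker of the hatching gland, had 5.67, 7.24 and 10.1 CPM on D3, 1.36, 3.19 and 6.01 CPM on D4, 0, 0 and 0.417 CPM on D5, 0.203, 0 and 0.123 CPM on D6 and 0, 0.0731 and 10.6 CPM on D7. It was the single gene of the 12822 below 1 CPM in every D5 library, and its library c of D7 alone, at 10.6 CPM, was above all D3 libraries.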
